A study of Mus musculus with 16 samples.

Results

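The genes described here encode the enzymes that prepare collagen and elastin for crosslinking, the lysyl hydroxylases PLOD1, PLOD2 and PLOD3 and the lysyl oxidases LOX, LOXL1, LOXL2, LOXL3 and LOXL4. Members were the rows of the deposited expression table whose gene symbol equals one of these 8 names. A row was found for 7 of the 8, among 18132 genes in all, and LOXL2 was not analysed here. They were measured in primary fibroblasts from inguinal mammary glands of female 129S6 mice of 8 to 10 weeks, which were MEKK1+/+ or MEKK1-/-. MEKK1 is a MAP kinase kinase kinase encoded by MAP3K1. The cells stayed in growth medium with serum (untreated, CTL) or were exposed for 8 h to the same medium conditioned by MDA-MB-231 human breast cancer cells, a widely used metastatic line (conditioned medium, CM). There were 16 Illumina Mouse 8 arrays, 4 in every group of a genotype and a treatment. The methods give 3 mice per genotype for 4 cultures per condition, so some cultures of a group share a mouse. The labels do not say which, so the arrays could not be tested per mouse and the p values are too small in that respect. The labels name no Cre or promoter and do not say how the gene was disrupted.

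Collagen is made as a procollagen chain in the endoplasmic reticulum, where PLOD enzymes hydroxylate lysine residues before the chains fold into a triple helix. PLOD1 and PLOD3 act mainly on helical lysines, PLOD3 also adds sugars to hydroxylysine, and PLOD2 is known for hydroxylating the telopeptides at the chain ends. After secretion, LOX and its relatives, which are copper-dependent amine oxidases, convert lysine and hydroxylysine side chains into aldehydes that condense into crosslinks between neighbouring collagen molecules. LOXL1 is best known for its part in elastic fibers. Hydroxylysine in the telopeptides leads to the more stable kind of crosslink found in stiff tissue and in fibrosis, and fibroblasts are the main source of these enzymes in breast stroma.

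Values are log2 intensities after quantile normalization between arrays, on which a difference of 1 is a 2-fold difference of intensity. A gene was called above background on an array where it passed the 99th percentile of 1075 olfactory receptor genes there, which lay between 7.20 and 7.34. Across genes, 38.2% passed that level on every array. The arrays correlated with others of their group at 0.979 to 0.996. All 8 fibroblast markers looked for passed the background level on all 16 arrays, and none of the 5 fat cell markers did on any array. Of 10 macrophage markers, 5 passed it on every array, while ITGAM and FCER1G were not above it on any. MAP3K1, the targeted gene, had a median of 7.69 on untreated MEKK1+/+ arrays and 8.24 on untreated arrays labelled MEKK1-/-. With CM its medians were 7.67 and 8.10. The signal was thus not lower on the arrays labelled MEKK1-/- (log2 difference 0.53, SE 0.15, limma adjusted p = 0.465 in untreated cells). Whether the probe lies in the disrupted part of the gene is not stated, so the genotypes rest on the labels alone. The 2 arrays labelled MEKK1-/- and numbered 1 stand apart from the others by their epithelial markers. KRT8, KRT18, KRT14, KRT5 and CDH1 together summed to 13.18 untreated and 12.92 with CM on them, against 9.33 to 10.08 on the other 14 arrays. Within that range, MEKK1-/- arrays numbered 3 and 4 had 9.72 to 10.08, above all MEKK1+/+ arrays (9.34 to 9.48). Leaving out the arrays numbered 1 thus does not remove all epithelial signal that differs by genotype. KRT5 was not above background on any array. Values of PLOD2, PLOD1 and LOXL3 are given with and without the 2 MEKK1-/- arrays numbered 1. In the 4 comparisons of groups, leaving both out moved no other member's difference by more than 0.067.

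None of the 7 members passed an adjusted p of 0.05 in any of the 5 comparisons by limma. Over all genes, 5.01% passed for CM in MEKK1+/+ cells, 4.69% for CM in MEKK1-/- cells, 0% between the genotypes untreated, 0.00552% between them with CM, and 0% for the interaction, which asks whether the response to CM differs by genotype. At an unadjusted p under 0.05 the members numbered 1, 0, 1, 1 and 0 of 7 in that order, against 16.8%, 16.2%, 9.27%, 8.09% and 2.61% of all genes. These were PLOD1 for CM in MEKK1+/+ cells and PLOD2 for both genotype comparisons. A p that misses the threshold does not show that groups are alike, so intervals are given for each difference. The median log2 difference of the 7 members was -0.03 and 0.02 for CM in the 2 genotypes and -0.09 and -0.13 for genotype without and with CM. Over all genes the medians lay between -0.0042 and 0.008. By sign, 6 of the 7 were lower for genotype untreated and 5 with CM, but on z-scores only 3 were lower in either. The untreated count includes PLOD3 at -0.0017 and the dim LOXL4 at -0.02. Without both MEKK1-/- arrays numbered 1, LOXL3, LOXL4 and PLOD1 lay above 0 in untreated cells (0.02, 0.05 and 0.12). The other members lay below 0 there, and with CM no sign turned. The comparisons share arrays (the untreated cells of a genotype serve both the treatment and the genotype comparison), so their values are given side by side and not as independent support.

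**Figure D1:**
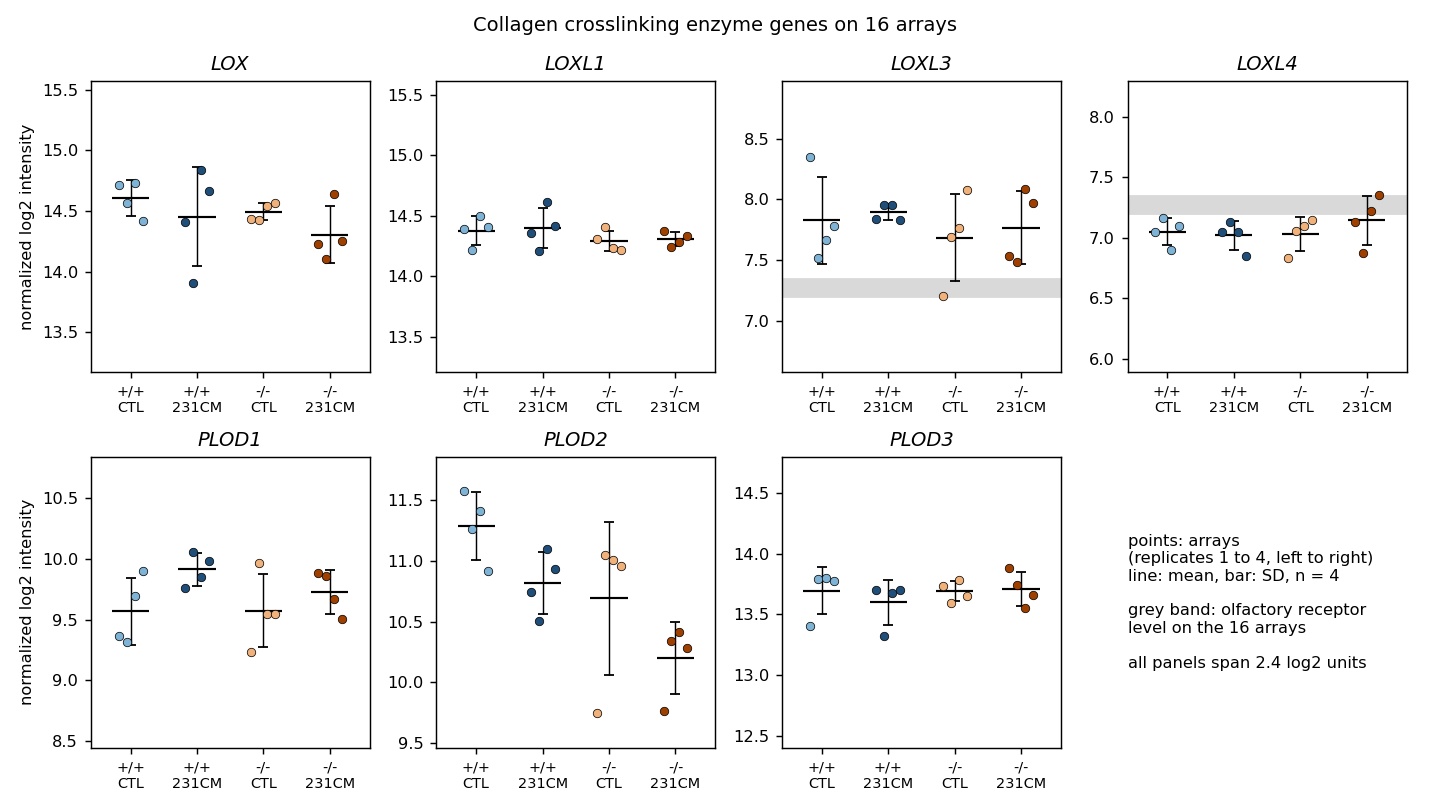
Normalized log2 intensity (vertical axis, the same span in each panel) of the 7 genes on the 16 arrays by group, with points for replicates 1 to 4, a line for the mean and a bar for the SD (n = 4), and a grey band for the olfactory receptor level. PLOD2 runs from 9.74 to 11.58, the widest range of the 7, while LOXL4 lies at or below its array's level on 15 of the 16 arrays.

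PLOD2, the telopeptide lysyl hydroxylase, was the member with the largest differences. In untreated MEKK1+/+ cells replicates 1 to 4 had log2 intensities of 11.58, 11.26, 11.41 and 10.92. With CM the MEKK1+/+ arrays had 10.74, 10.50, 11.10 and 10.93. The CM group thus lay mostly lower, with overlap in the range of 10.92 to 11.10. Untreated MEKK1-/- arrays had 9.74, 11.05, 11.01 and 10.96, and MEKK1-/- arrays with CM had 9.76, 10.34, 10.41 and 10.28. In each MEKK1-/- group the array numbered 1 was the lowest. All 4 MEKK1-/- arrays with CM were below all 4 MEKK1+/+ arrays with CM. The deposited intensities ran from 662 to 4813 and every array was above background.

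By group mean (± SD, n = 4), untreated MEKK1+/+ cells came first for PLOD2 with 11.29 ± 0.28, then CM-exposed MEKK1+/+ cells with 10.82 ± 0.26, untreated MEKK1-/- cells with 10.69 ± 0.63 and CM-exposed MEKK1-/- cells with 10.20 ± 0.30. The middle groups of this order differ by less than their spread. For genotype in untreated cells the log2 difference was -0.60 (SE 0.25, 95% interval -1.14 to -0.06), an intensity 1.52-fold lower in MEKK1-/- cells, with a limma adjusted p = 0.520. An exact 2-sided permutation test of the 4 arrays against 4 gave p = 0.114, where the smallest p possible is 0.0286. With CM the genotype difference was -0.62 (SE 0.25, 95% interval -1.16 to -0.08), 1.54-fold lower, with a limma adjusted p = 0.581, and the exact permutation p was 0.0286, the smallest possible. Groups that do not overlap in this direction were found for 1.85% of all genes in that comparison. The methods' own test on z-scores called PLOD2 there (adjusted p = 0.0246), and with it 2.54% of all genes. By p value PLOD2 ranked 1120 of 18132 genes for genotype in untreated cells and 871 with CM.

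For CM the PLOD2 difference was -0.47 in MEKK1+/+ cells (SE 0.25, 95% interval -1.02 to 0.07, limma adjusted p = 0.389, exact permutation p = 0.0857) and -0.49 in MEKK1-/- cells (95% interval -1.03 to 0.05, limma adjusted p = 0.378, exact permutation p = 0.200). These are 1.39-fold and 1.40-fold lower intensities with CM. The interaction was -0.02 (SE 0.36, 95% interval -0.78 to 0.75), so a difference between the 2 treatment effects was not detectable, within bounds that leave room for one as large as the effects themselves. Paired by replicate number, the CM array was lower by 0.84, 0.76 and 0.31 for MEKK1+/+ numbers 1 to 3 and higher by 0.01 for number 4. In MEKK1-/- cells the CM array was lower by 0.71, 0.60 and 0.67 for numbers 2 to 4 and higher by 0.02 for number 1.

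**Figure D2:**
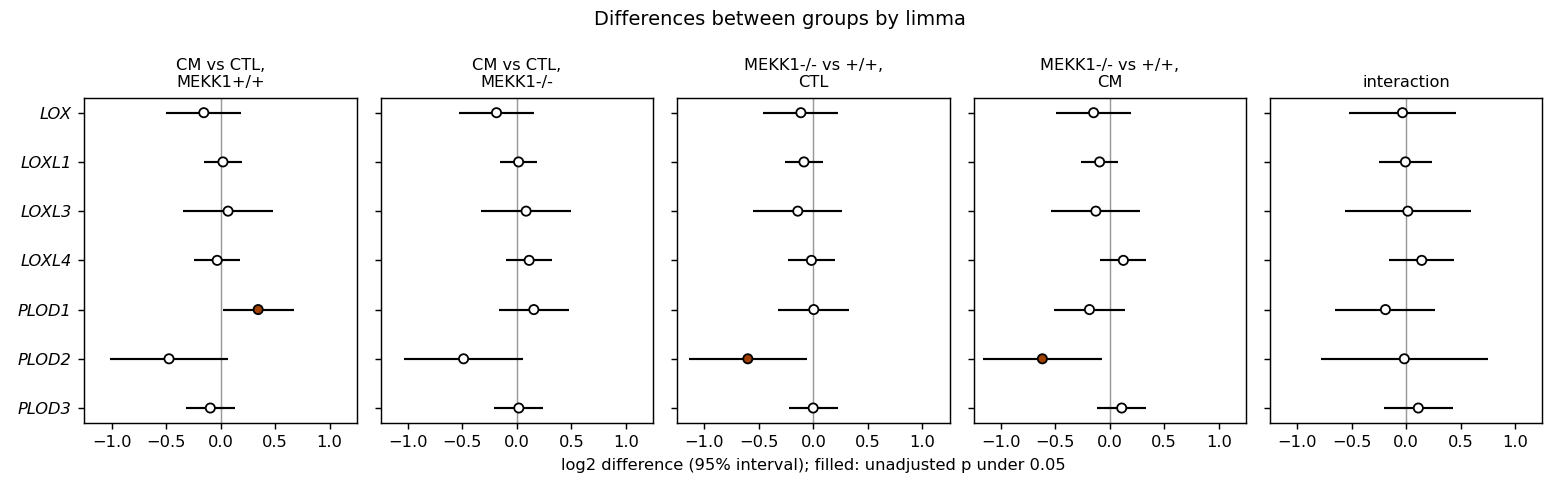
Log2 difference (horizontal axis) with its 95% interval from limma for each of the 7 genes in the 5 comparisons, with filled points where the unadjusted p was under 0.05. PLOD2 has the largest difference in size in the 4 comparisons of groups, from -0.47 to -0.62, and the intervals of LOXL1 and PLOD3 lie close to 0.

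The 2 MEKK1-/- arrays numbered 1 carry part of the PLOD2 values. They had the lowest PLOD2 of all 16 arrays, and they also had the highest epithelial sums, and the highest endothelial sums with 10.18 and 10.24 against 9.32 to 9.74 on the other 14. KDR, an endothelial receptor, was not above background on any array. Their fibroblast marker sums, 16.17 and 16.36, lay inside the range of the others, 16.16 to 16.55. Macrophage marker sums ran from 13.10 to 15.09 and 13.12 to 14.78 in the MEKK1+/+ groups and from 11.87 to 14.58 and 12.13 to 14.45 in the MEKK1-/- groups, and the median log2 difference of the 10 markers for genotype was -0.84 untreated and -0.88 with CM. In bulk RNA, fewer cells of a type and less RNA per cell cannot be told apart. The part of these other cells in the PLOD2 values was not tested.

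Without both MEKK1-/- arrays numbered 1, the PLOD2 genotype difference was -0.29 in untreated cells (limma adjusted p = 0.711) and -0.47 with CM (adjusted p = 0.572). The CM difference was -0.66 in MEKK1-/- cells (SE 0.16, 95% interval -0.998 to -0.32, 1.58-fold lower) and then passed the threshold with a limma adjusted p of 0.0313, as did 4.24% of all genes in that fit. In MEKK1+/+ cells it was -0.47 (adjusted p = 0.0587), with 6.04% of all genes called. Leaving out the untreated MEKK1-/- array numbered 1 alone gave -0.28 for genotype in untreated cells and -0.81 for CM in MEKK1-/- cells (limma adjusted p = 0.0197), a call that 3.89% of all genes shared. The size of the genotype difference in untreated cells therefore rested on that array, while PLOD2 stayed below 0 in both genotype comparisons under all 28 settings tried for each.

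**Figure D3:**
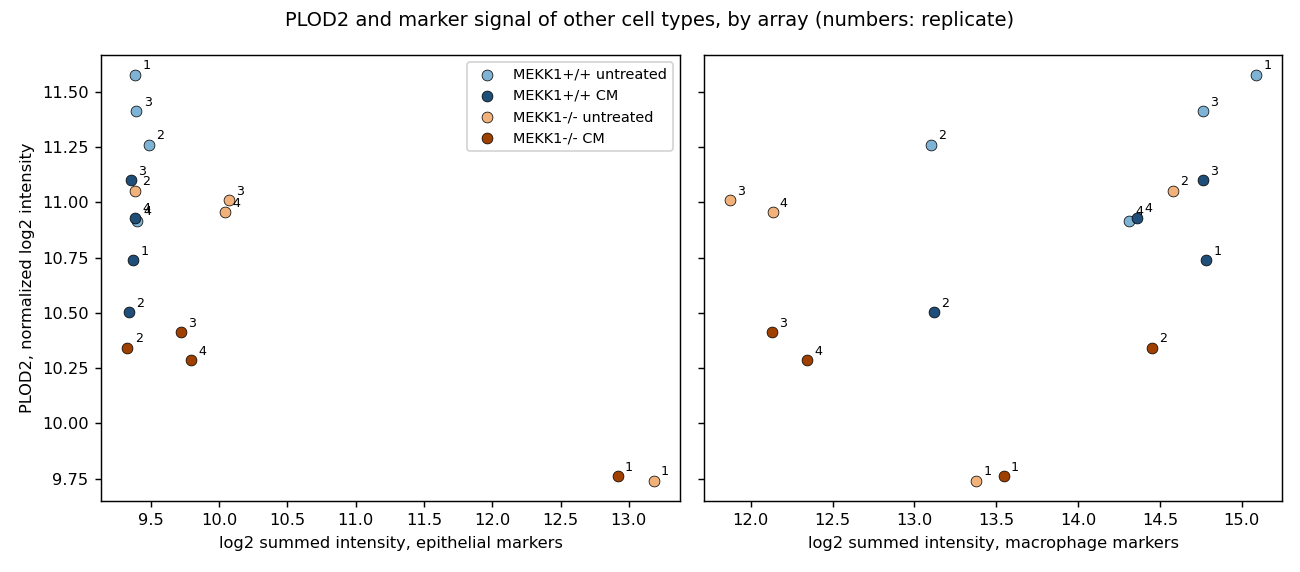
PLOD2 normalized log2 intensity (vertical axis) against the log2 summed intensity of the epithelial markers (left) and macrophage markers (right) for the 16 arrays, coloured by group and numbered by replicate. The MEKK1-/- arrays numbered 1 lie alone at epithelial sums of 13.18 and 12.92 with PLOD2 at 9.74 and 9.76.

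Averaging over the second factor, which was chosen after these values were seen, gave narrower intervals. PLOD2 was 0.61 lower on the log2 scale in MEKK1-/- cells over both treatments (log2 difference -0.61, SE 0.18, 95% interval -0.99 to -0.23, 1.53-fold, limma adjusted p = 0.143), with 0.011% of all genes past the threshold. It was lower with CM over both genotypes by 1.40-fold (log2 difference -0.48, SE 0.18, 95% interval -0.87 to -0.10, limma adjusted p = 0.105), with 12.5% of all genes past it. The CM value was called with the replicate number as a block within genotype (limma adjusted p = 0.0111, with 16.3% of all genes called). Whether replicate numbers pair the arrays was not settled by the check made. The CM value was also called without both MEKK1-/- arrays numbered 1 (log2 difference -0.57, limma adjusted p = 0.00258, with 12.8% of all genes called) and without the untreated one of them alone (limma adjusted p = 0.00268, with 12.1%). The genotype value without them was -0.38 (limma adjusted p = 0.209, with 0.0607% of all genes past the threshold). With 3 mice per genotype, the 8 arrays of a genotype are not 8 independent samples in the averaged genotype value. Deviations of same-numbered arrays correlated at 0.219 to 0.505 in MEKK1-/- cells, and at 0.485 and 0.576 for MEKK1+/+ numbers 2 and 4. For MEKK1+/+ numbers 1 and 3 these were -0.04 and 0.120.

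**Figure D4:**
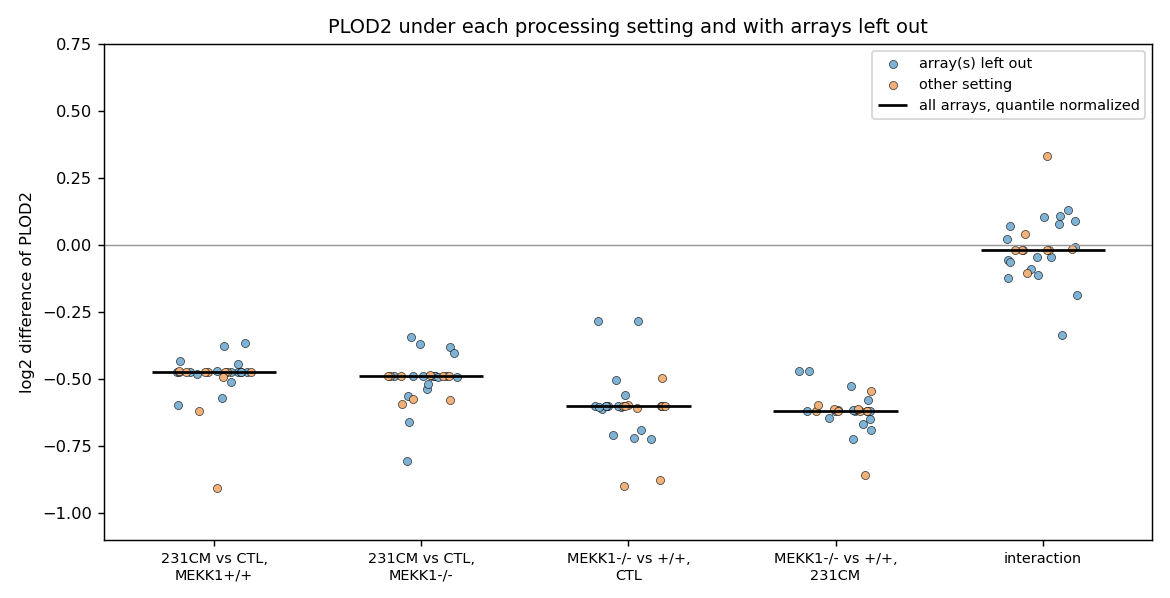
Log2 difference of PLOD2 (vertical axis) in the 5 comparisons, with a line for all arrays after quantile normalization, blue points for arrays left out and orange points for other settings on the log2 scale. All points of the 4 comparisons of groups lie below 0, and those of the interaction lie on both sides of it.

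PLOD1, which hydroxylates helical lysines, had values of 9.36, 9.32, 9.69 and 9.90 in untreated MEKK1+/+ cells and 9.76, 10.06, 9.85 and 9.98 with CM. The CM arrays were thus higher on average, and the highest untreated array lay among them. The difference was 0.34 on the log2 scale (SE 0.15, 95% interval 0.02 to 0.67, 1.27-fold higher, limma adjusted p = 0.259), and the exact 2-sided permutation p was 0.0857. On the values as deposited it was -0.058, where the median of all genes was -0.28, so relative to all genes PLOD1 was higher on both scales. In MEKK1-/- cells untreated arrays had 9.23, 9.97, 9.55 and 9.55 and CM arrays 9.88, 9.86, 9.67 and 9.50, a difference of 0.15 (95% interval -0.17 to 0.48, limma adjusted p = 0.729). The genotype differences were 0.00 untreated (95% interval -0.32 to 0.33) and -0.19 with CM (95% interval -0.51 to 0.14). Without both MEKK1-/- arrays numbered 1, the CM difference in MEKK1-/- cells was -0.01, and the genotype differences were 0.12 untreated and -0.24 with CM (limma adjusted p = 0.896 and 0.772). Group means were ordered 9.91 in MEKK1+/+ cells with CM, 9.73 in MEKK1-/- cells with CM and 9.57 in the untreated cells of either genotype. The CM-exposed groups differed by slightly more than their SDs of 0.13 and 0.18 (limma adjusted p = 0.762), and the other neighbours by less than their spread.

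PLOD3, the lysyl hydroxylase that also transfers sugars, was bright and, after quantile normalization, nearly level. Untreated MEKK1+/+ arrays had 13.41, 13.79, 13.80 and 13.78, and those with CM had 13.70, 13.32, 13.68 and 13.70. Untreated MEKK1-/- arrays had 13.74, 13.60, 13.79 and 13.65, and those with CM had 13.88, 13.75, 13.55 and 13.66. All 4 groups overlapped, and 1 array in each MEKK1+/+ group lay below the others of its group. The differences were -0.09 and 0.02 for CM in MEKK1+/+ and MEKK1-/- cells and -0.00 and 0.11 for genotype without and with CM. Their 95% intervals ran from -0.32 at the lowest to 0.33 at the highest. On the values as deposited the CM difference in MEKK1+/+ cells was -0.42, where the median of all genes was -0.28.

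LOX, the founding lysyl oxidase, had 14.72, 14.57, 14.73 and 14.42 in untreated MEKK1+/+ cells and 14.41, 13.90, 14.84 and 14.67 with CM. Untreated MEKK1-/- arrays had 14.44, 14.43, 14.54 and 14.57, and those with CM 14.23, 14.10, 14.64 and 14.25. Array 2 was the lowest of the CM arrays in both genotypes, and all groups overlapped. The means were 14.61 ± 0.15, 14.45 ± 0.41, 14.49 ± 0.07 and 14.31 ± 0.23 (SD, n = 4) in the same order. The CM difference was -0.15 in MEKK1+/+ cells (95% interval -0.50 to 0.19) and -0.19 in MEKK1-/- cells (95% interval -0.53 to 0.16), with limma adjusted p of 0.743 and 0.675. For genotype it was -0.11 untreated (adjusted p = 0.843) and -0.15 with CM (adjusted p = 0.825). LOX reached 31.9% to 73.5% of the brightest value of its array, so it stayed below the top of the scale. The SD of MEKK1+/+ cells with CM was the largest of the 4 groups. As deposited, the CM difference of LOX in MEKK1+/+ cells was -0.46, where the median of all genes was -0.28.

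LOXL1, the lysyl oxidase of elastic fibers, varied least. Values ran from 14.22 to 14.50 in untreated MEKK1+/+ cells and from 14.21 to 14.61 with CM, and from 14.22 to 14.41 and 14.24 to 14.37 in the MEKK1-/- groups. All groups overlapped. The CM differences were 0.02 (95% interval -0.15 to 0.19) and 0.01 (95% interval -0.16 to 0.19) in MEKK1+/+ and MEKK1-/- cells. The genotype differences were -0.09 untreated (95% interval -0.26 to 0.08) and -0.09 with CM (95% interval -0.26 to 0.08). After scaling to the array median instead, the genotype differences were -0.26 and -0.30 (limma adjusted p = 0.107 and 0.177), on the deposited scale -0.24 and 0.01, and on z-scores 0.14 and 0.06 z-score units, the other sign. LOXL1 reached 37.0% to 57.9% of the brightest value of its array.

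LOXL3 and LOXL4, 2 further lysyl oxidases, were dim. LOXL3 passed background on 15 of 16 arrays, all but the untreated MEKK1-/- array numbered 1, at 7.21 to 8.35. Its 4 group means were 7.83 ± 0.36, 7.90 ± 0.07, 7.68 ± 0.36 and 7.77 ± 0.30 (SD, n = 4, untreated and CM in MEKK1+/+ cells, then the same in MEKK1-/- cells), and the 4 differences compared ran from -0.14 to 0.08. Without both MEKK1-/- arrays numbered 1, the genotype differences were 0.02 untreated and -0.05 with CM. The CM difference of LOXL3 in MEKK1-/- cells was then 0.001, in place of 0.08. LOXL4 passed it on 1 of 16 arrays, that of MEKK1-/- cells with CM numbered 4, and ran from 6.83 to 7.35. For LOXL4 a change below background could not be seen at this signal. Both genes have group differences within their spread.

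Among the members, LOX and LOXL1 had a Pearson r of 0.53 over 16 arrays and 0.56 after group means were removed. For LOX and PLOD2 these were 0.61 and 0.48, and for LOXL3 and PLOD3 -0.66 and -0.65. LOXL3 had 0.47 and 0.61 with PLOD2, and 0.48 and 0.56 with LOXL4. The 21 pairs are a description over arrays that share a normalization and cultures, with no test.

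For each of the 5 members above background on every array, the 3 most similar genes were taken by Pearson r over the 16 arrays, out of 6922 other genes above background throughout. For PLOD2 these were PLSCR4 with r = 0.95, a membrane phospholipid scramblase, 5730469M10RIK with r = 0.94 (Prxl2a in the RefSeq table of assembly GRCm38.p6) and GYG with r = 0.92, the glycogenin that primes glycogen. Without the 2 MEKK1-/- arrays numbered 1 the r values were 0.89, 0.86 and 0.85 over 14 arrays. The profile of PLSCR4 was narrower than that of PLOD2, from -0.41 to 0.34 around its mean against -1.01 to 0.83. Its differences were -0.26 for genotype in untreated cells and -0.18 for CM in MEKK1+/+ cells, with limma adjusted p of 0.521 and 0.486. LOX was most similar to GPR177 (r = 0.86), the Wnt carrier also called Wntless, CTNNAL1 (0.85) and G3BP2 (0.84). LOXL1 was most similar to XLR4A (0.85), PPIC (0.80), a cyclophilin of the secretory pathway, and ADAM23 (0.80). PLOD1 was most similar to CYB5 (0.84), GPR153 (0.83) and EMILIN2 (0.82), an elastic fiber glycoprotein. PLOD3 was most similar to 2310037I24RIK (0.86), DAP3 (0.85) and KEAP1 (0.84). These r values are the highest of 6922 and carry no test. By Spearman rho the same pairs ran from 0.65 (LOX with G3BP2) to 0.92 (PLOD2 with PLSCR4).

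**Figure D5:**
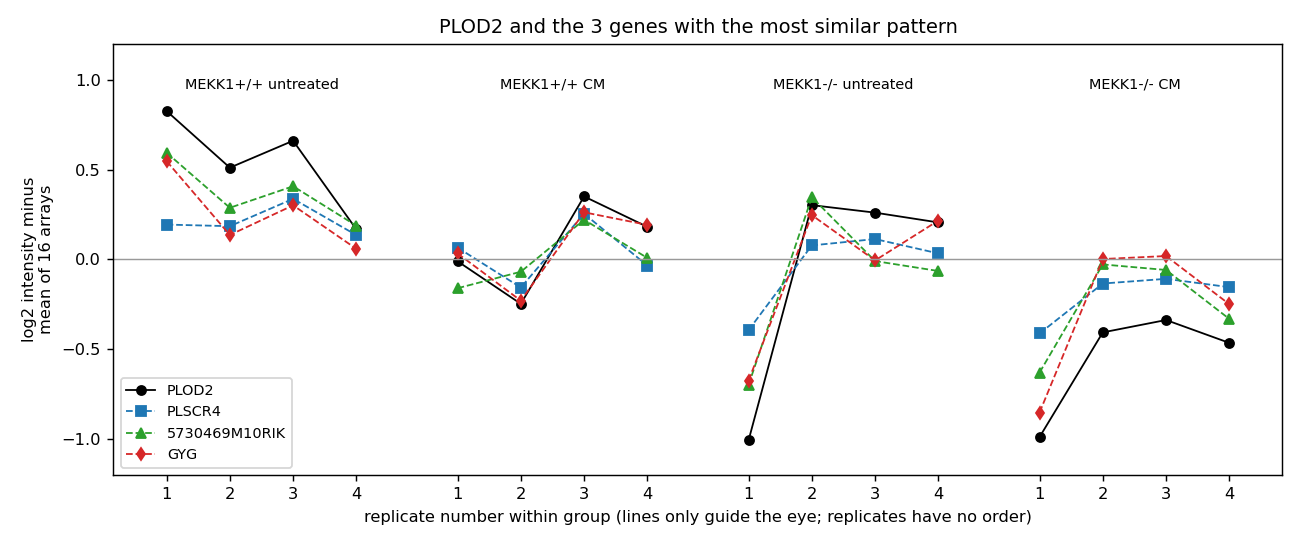
Log2 intensity minus the mean of the 16 arrays (vertical axis) for PLOD2 and PLSCR4, 5730469M10RIK and GYG, with replicates 1 to 4 in each group on the horizontal axis. All 4 genes have their 2 lowest values on the MEKK1-/- arrays numbered 1, at -1.01 and -0.99 for PLOD2 and -0.68 and -0.85 for GYG.

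The wider machinery was described by lists of the genes that surround these enzymes. Collagen prolyl hydroxylases, the enzymes that hydroxylate proline in the same compartment, had 8 measured genes and 0 that passed an adjusted p of 0.05 in any comparison. For genotype 7 of the 8 were lower in each treatment, with a median of -0.11 untreated and -0.14 with CM, against 0.01 and 0.00 for all genes. Signs of list genes were counted only on the quantile normalized values, with the MEKK1-/- arrays numbered 1 included. P4HA2, an alpha subunit of the prolyl 4-hydroxylase, differed by 0.52 and 0.55 with CM in MEKK1+/+ and MEKK1-/- cells (limma adjusted p = 0.155 and 0.137). P4HA3, another alpha subunit, differed by -0.26 and -0.34 (adjusted p = 0.267 and 0.116), so these 2 subunits lay on opposite sides of 0. Names of list genes that did not pass the threshold were chosen after their values were seen. The 5 collagen glycosyltransferases and chaperones, 7 procollagen proteinases and enhancers, 10 elastic fiber genes and 8 collagen-binding matrix proteins likewise had 0 past the threshold in every comparison.

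Fibrillar collagens, the substrates of these enzymes, had 9 measured genes and 0 past the threshold, with 7 higher and 2 lower with CM in each genotype. Of the 5 above background on every array, 4 were higher. COL1A2 differed by 0.49 and 0.52 with CM in MEKK1+/+ and MEKK1-/- cells (limma adjusted p = 0.075 and 0.0653), while COL1A1 differed by 0.01 and -0.11. COL5A3 differed by 0.72 and 0.63 (adjusted p = 0.0984 and 0.166). Of 4 copper handling genes, which matter because lysyl oxidases need copper, SLC31A1 rose with CM in MEKK1+/+ cells by a log2 difference of 0.38 (SE 0.09, 1.30-fold, limma adjusted p = 0.0196). In MEKK1-/- cells its difference was 0.31 (adjusted p = 0.0593), and the interaction was not past the threshold. SLC31A1 is the copper importer of the cell surface. Among fibroblast markers PDGFRA, a growth factor receptor, rose with CM by 0.95 in MEKK1+/+ cells (1.94-fold, limma adjusted p = 0.0256) and by 1.00 in MEKK1-/- cells (2.00-fold, adjusted p = 0.0204). No gene of the macrophage, epithelial, endothelial or fat cell lists passed the threshold in the 5 comparisons.

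PLOD2 and LOX are known targets of hypoxia-inducible factor, and LOX of TGF-beta. Of 13 other hypoxia-inducible factor targets, 0 passed the threshold in any comparison. For genotype 11 were lower in untreated cells and 10 with CM, with medians of -0.20 and -0.14, against 0.01 and 0.00 for all genes. These signs were not counted without the MEKK1-/- arrays numbered 1. PGK1 and BNIP3 were above background on no array and CAR9 on 2, and of the 10 targets above it on every array 8 were lower in each genotype comparison, with medians of -0.26 and -0.15. With CM 5 of the 13 had higher values in MEKK1+/+ cells and 8 of the 13 in MEKK1-/- cells. VEGFA, the vascular growth factor, differed by 0.51 and 0.49 (limma adjusted p = 0.0618 and 0.0783), and PDK1, a mitochondrial kinase, by -0.75 and -0.43 (adjusted p = 0.168 and 0.535), so these 2 targets lay on opposite sides of 0. The summed level of the 13 was lowest on the untreated MEKK1-/- array numbered 1, at 15.42 against 15.63 to 16.33 on the other 15. Of 9 TGF-beta targets, 0 passed, and 7 were lower with CM in each genotype, with medians of -0.12 and -0.21, including all 6 that were above background on every array.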

How the data were processed

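Gene expression was measured on 16 one-colour Illumina Mouse 8 arrays of mouse mammary fibroblasts. The authors deposited one linear intensity for each gene and array, already normalized by a core facility according to the labels. The method, background treatment and summary of probes are not given in the sources used here, and array medians ran from 114 to 170.1. For an array the number of arrays, 4 per group, limits the precision. Groups and replicate numbers were taken from the labels. Deposited intensities were converted to log2 and quantile normalized between arrays, and limma 3.58.1 (lmFit, eBayes; R 4.3.3) fitted all 4 groups in one model, leaving 12 residual degrees of freedom. Adjusted p values are by Benjamini-Hochberg over 18132 genes with a threshold of 0.05. Each member had an exact permutation test as well, 2-sided, over the 4 arrays of either group. The script was tested on simulated data. Alternatives of scaling were the values as deposited, median scaling, z-scores, a pseudocount of 16 and a floor of 64. The z-scores were tested with limma or with a z-test of the kind the study names. Others were only genes above the median level, only the groups compared, trend and robust eBayes, array weights, replicate blocks and each array left out. Averaging over a factor and leaving out both MEKK1-/- arrays numbered 1 were added after the values were seen.

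The members and lists were chosen with earlier results of these data known. Named genes are all members, list genes past the threshold (at most 4 per list and comparison) and, for members above background on every array, the 3 genes with the highest Pearson r. List genes named without passing the threshold fall outside this rule and were chosen after their values were seen. Whether a replicate number marks a pair was checked between untreated and CM arrays, as the correlation across genes of their deviations from the group means. It was 0.505, 0.403, 0.219 and 0.251 in MEKK1-/- cells and -0.04, 0.485, 0.120 and 0.576 in MEKK1+/+ cells. Arrays of different numbers were not compared. Between genotypes, whose cultures come from different mice, same-numbered arrays gave from -0.575 (untreated, numbered 2) to 0.234 (CM, numbered 3). The check therefore cannot decide whether the numbers pair the arrays, and the labels do not say. LOXL2 was not analysed here.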

Additional observations from a re-analysis of the deposited data

Results flagged for a closer look

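Of 28 groups of 4 arrays checked (7 genes in 4 groups), 3 held an array whose gap to the nearest other array passed Dixon's 95% critical value, where chance gives about 1 in 20. PLOD2 had a log2 intensity of 9.74 on the untreated MEKK1-/- array numbered 1, where the other 3 arrays had 10.96 to 11.05. PLOD3 had 13.41 on the untreated MEKK1+/+ array numbered 1, where the others had 13.78 to 13.80. As deposited that array had an intensity of 15779, and the lowest of its group was number 4 with 12136. PLOD3 had 13.32 on the MEKK1+/+ array with CM numbered 2, where the others had 13.68 to 13.70.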

How the results depend on the processing

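No member passed an adjusted p of 0.05 in the 5 comparisons, and this held under the alternatives except as follows. By the z-test, PLOD2 was the 1 member called for genotype with CM, at -0.39 in z-score units (adjusted p = 0.0246, against 0.620 by limma on z-scores). For CM in MEKK1-/- cells 1 member, PLOD2, was called without both MEKK1-/- arrays numbered 1, and 0 to 1 with single arrays left out. For genotype averaged over treatments 2 were called after median scaling (LOXL1 at -0.28, adjusted p = 0.00822, and PLOD2 at -0.88, adjusted p = 0.0301, with 6.39% of all genes) and 1 by the z-test (PLOD2, adjusted p = 0.0420, with 5.15%). For CM averaged over genotypes 1 was called with array weights (PLOD2 at -0.54, adjusted p = 0.0188, with 15.4% of all genes), with the replicate block within genotype and without both MEKK1-/- arrays numbered 1, and 0 to 1 with single arrays left out. Those were PLOD2 without the untreated MEKK1-/- array numbered 1 (adjusted p = 0.00268) and PLOD1 without the one numbered 2 (0.31, adjusted p = 0.0477, with 12.3% of all genes). Signs that turned with an unadjusted p under 0.05 in either fit were PLOD1 for CM in MEKK1+/+ cells as deposited (-0.058), LOX for genotype untreated by the z-test (0.13 z-score units) and PLOD3 for averaged genotype after median scaling (-0.17, adjusted p = 0.0900). Of 1372 values of members under other settings, 1260 kept their sign.

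The replicate block over all arrays gave PLOD2 adjusted p values of 0.353 and 0.338 for CM in MEKK1+/+ and MEKK1-/- cells, and within genotype 0.0929 and 0.0844. None of these passed the threshold. PLOD2 for CM averaged over genotypes was called with the block within genotype (limma adjusted p = 0.0111), and the blocks changed no other call of a member. Over all genes the block within genotype raised the calls from 909 to 1481 and from 851 to 1438.

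As deposited, the median of all genes shifted by -0.28 for CM in MEKK1+/+ cells and by 0.28 for genotype with CM. There the members were 0 higher and 7 lower, and 4 higher and 3 lower, in place of 3 and 4, and 2 and 5. For the interaction they were 7 higher and 0 lower, in place of 3 and 4. On z-scores they were 4 higher and 3 lower for genotype in either treatment, in place of 1 and 6 untreated and 2 and 5 with CM. Of the genes called for CM in MEKK1+/+ cells, 32 of 795 were higher as deposited, against 411 of 909. In MEKK1-/- cells 34 of 45 were higher, against 395 of 851. After median scaling it was 291 of 881 in MEKK1+/+ cells. Calls over all genes were 1916 and 2047 for CM by the z-test, 588 in MEKK1+/+ cells with only the arrays compared, 463 after median scaling and 1355 with array weights in MEKK1-/- cells, and 506 to 1007 and 477 to 1027 with single arrays left out. For genotype they were 0 and 1, by the z-test 817 and 460, after median scaling 0 and 7, and with array weights 1 untreated. The interaction had 0, and 20 by the z-test. Averaged genotype had 2, and 1 as deposited, 1159 after median scaling, 5 with z-scores, 16 with trend and robust eBayes, 1.27% of all genes with array weights, 9 with the block, 933 by the z-test and 2 to 166 with single arrays left out. Averaged CM had 2262, and 1000 as deposited. The causes were not tested. Signal over background limits LOXL4, and LOXL3 on 1 array.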
